A study of Homo sapiens with 28 samples.

Results

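ERG, FLI1, TAL1, CDH5, KDR and TEK are 6 genes by which endothelial cells, the cells that line blood vessels, are recognised. H3K27ac peaks at these genes were taken from 14 peak lists of SW872 cells, an established human liposarcoma line. Each gene was given the gene body fixed in GRCh37/hg19 coordinates, widened by 10 kb to each side, and every peak overlapping it by at least 1 bp was kept. This gave 497 peaks out of 654580 in the 14 lists. H3K27ac, acetylation of lysine on the tail of histone H3, marks active promoters and enhancers.

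The cells had been transduced with retrovirus carrying an empty vector (EV), a fusion (TAZ-CAMTA1 or YAP-TFE3), an active form of TAZ or YAP (TAZ4SA or YAP5SA), or a full-length fusion partner (CAMTA1 or TFE3), described in the ChIP methods as Flag-tagged, and pools were selected with G418. TAZ4SA and YAP5SA carry alanine in place of serines through which the Hippo kinases inhibit these proteins. All 14 lists come from cells of this line, grown close to confluence. The labels except cells with CAMTA1, collected below confluence, whereas the methods for ChIP make no such exception. There were 2 libraries for each of the 7 labels, which the methods call biological duplicates. The lists held 5721 to 102009 peaks, which covered 0.121% to 5.76% of the genome. The list labelled TFE3 replicate 1 was the shortest, and both labelled TAZ4SA were the longest. Read depths are unknown, and the 14 input libraries were not analysed here.

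The constructs carried by the peak names inside the lists differ from the labels in 14 of 14 lists. Lists labelled EV are named CAMTA1 in their peaks, those labelled TAZ4SA are named EV, those labelled TAZ-CAMTA1 are named TAZ4SA, and those labelled CAMTA1 are named TAZ-CAMTA1. Lists labelled YAP5SA are named TFE3, those labelled YAP-TFE3 are named YAP5SA, and those labelled TFE3 are named YAP-TFE3. The names of the files carry the same constructs as their peaks and, taken in the order of the samples, run through the constructs alphabetically, which the labels do not. Groups below follow the labels, the tests of fusions against the rest are also given by the peak names, and which naming is right was not tested. The 4 lists labelled with a fusion are those whose peaks are named TAZ4SA or YAP5SA. No difference can therefore be assigned to a construct with certainty.

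TAZ-CAMTA1 and YAP-TFE3 are the fusions of epithelioid hemangioendothelioma, a sarcoma whose cells show endothelial markers. ERG and FLI1 are transcription factors of the ETS family and TAL1 is a basic helix-loop-helix factor of early blood and endothelial cells. CDH5 encodes VE-cadherin of endothelial cell junctions, and KDR and TEK encode the receptors for VEGF and the angiopoietins. A liposarcoma line is not endothelial, and the question put to the lists was which of these genes carried acetylated chromatin and whether it differed with a fusion. The identity of the line was not checked against other marker genes, whose coordinates in this build were not used here.

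The 6 genes fell into 3 pairs. FLI1 and CDH5 had peaks in 14 of 14 lists, and their strongest peak ranked in the top 10% of its own list, by −log10 p, in 13 lists each. The share of genome stretches with a peak of such rank was not computed, and a locus with more peaks reaches it more easily. ERG and TEK had weaker peaks in 12 and 13 lists. TAL1 and KDR had peaks in 4 and 2 lists. The share of all genome stretches as wide as the locus that had a peak in at least 1 list, and in at least 7 lists, was 59.4% and 45.7% for the width of FLI1, and 45.8% and 29.8% for that of CDH5. It was 69.6% and 57.9% for ERG, 58.8% and 45.0% for TEK, 39.0% and 22.4% for TAL1, and 48.0% and 32.1% for KDR. A peak somewhere in the locus was thus common for windows of these widths, and the counts of lists are read beside those shares. When each list was reduced to its 5721 strongest peaks, the length of the shortest, FLI1 and CDH5 still had a peak in 14 of 14 lists and the other 4 genes in 0. All 14 reduced lists had a peak in 8.09% of stretches as wide as FLI1 and in 3.28% of those as wide as CDH5.

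**Figure D1:**
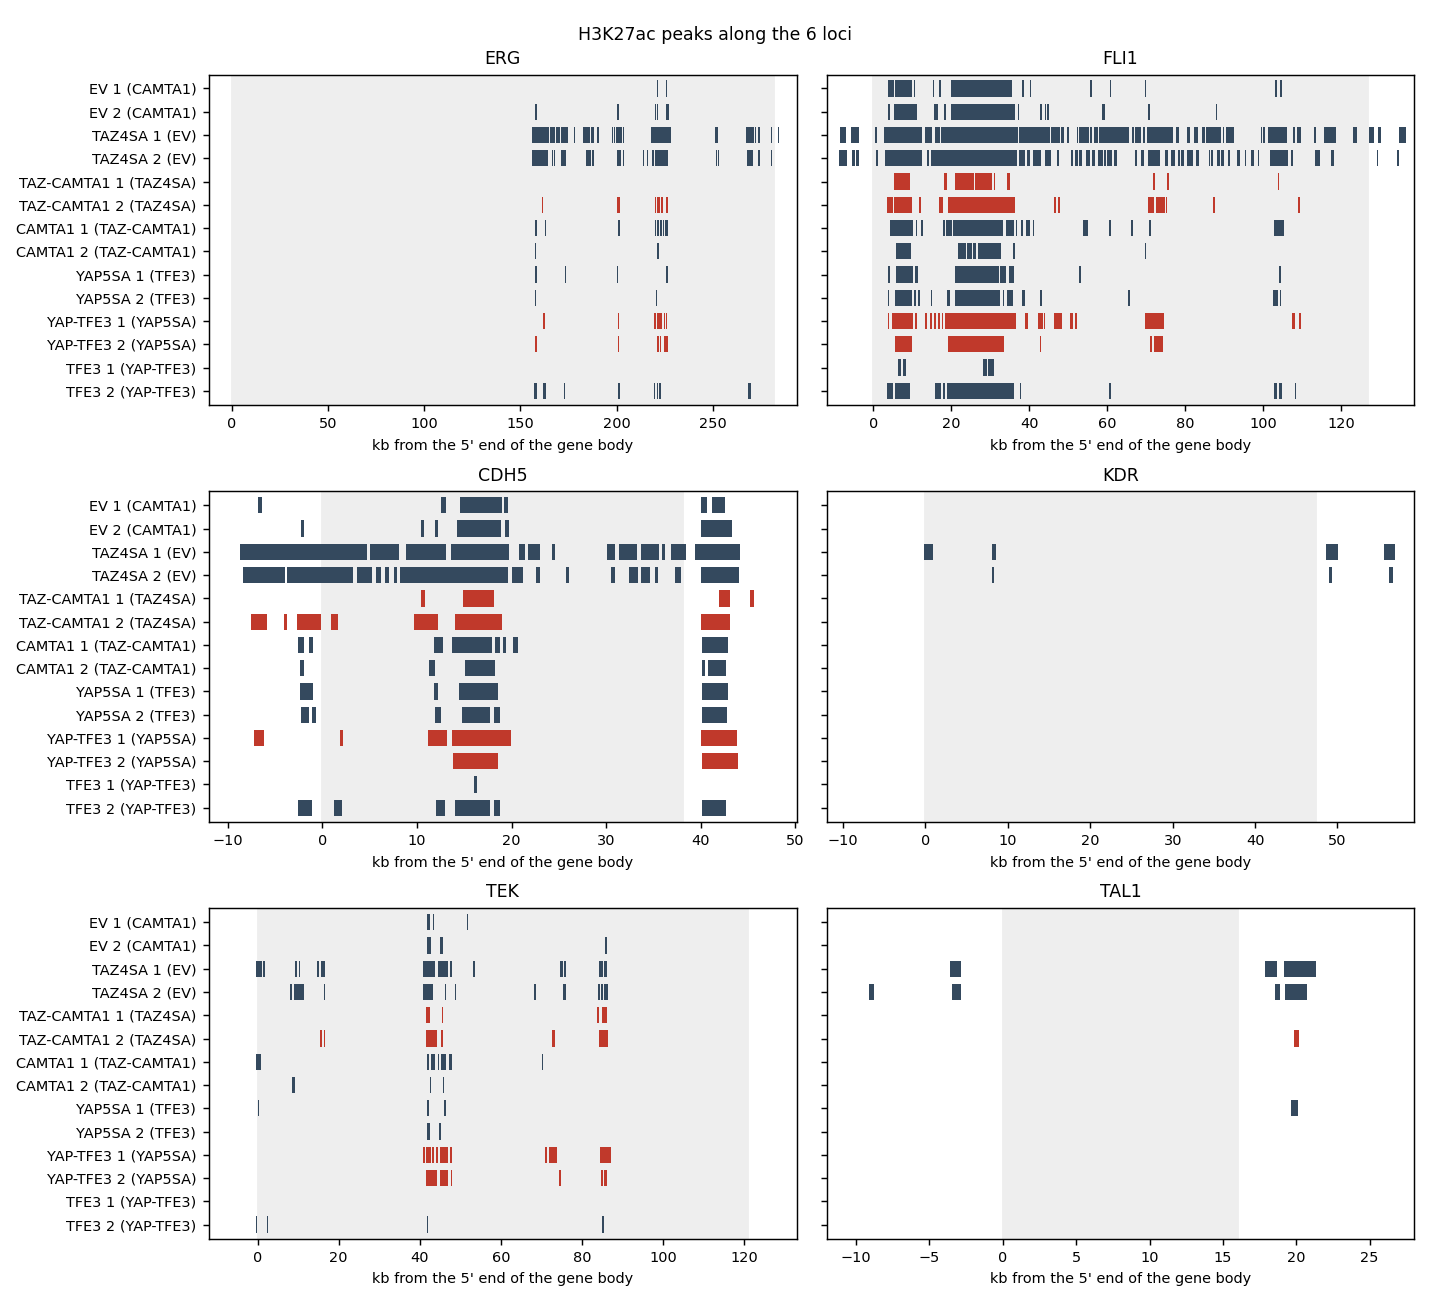
H3K27ac peaks (bars) along the 6 loci, with the distance in kb from the 5′ end of the gene body on the horizontal axis and 1 row for each list, named by its label and replicate and, in brackets, by the construct in its peak names; grey marks the gene body, and red marks lists labelled with a fusion. FLI1 and CDH5 carried peaks at the same places in 14 of 14 lists, whereas TAL1 and KDR carried them in 4 and 2.

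RefSeq promoters (GRCh38.p14, 250 bases before to 50 after a start) were at hand for 4 of the 6 genes, ERG, KDR, TEK and TAL1. The first promoter listed for each is shown because the genes differed in whether a peak lay near the start. The sequences are of another build than the peaks and were not lined up with them. Each was searched on both strands for CCGGAA, a core of ETS factor sites, and for GGAATG, a core of the sites of TEAD factors, the DNA-binding partners of YAP and TAZ. A match is in capitals. ERG is at chr21:38660618-38660917 (minus strand), KDR at chr4:55125546-55125845 (minus strand), TEK at chr9:27108975-27109274 (plus strand) and TAL1 at chr1:47232286-47232585 (minus strand).
ERG: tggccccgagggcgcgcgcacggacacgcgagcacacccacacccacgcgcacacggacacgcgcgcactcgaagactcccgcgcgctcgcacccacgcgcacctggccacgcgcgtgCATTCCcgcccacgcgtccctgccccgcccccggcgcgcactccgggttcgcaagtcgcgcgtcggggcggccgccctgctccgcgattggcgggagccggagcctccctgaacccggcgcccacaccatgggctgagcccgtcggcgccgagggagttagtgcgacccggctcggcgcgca
KDR: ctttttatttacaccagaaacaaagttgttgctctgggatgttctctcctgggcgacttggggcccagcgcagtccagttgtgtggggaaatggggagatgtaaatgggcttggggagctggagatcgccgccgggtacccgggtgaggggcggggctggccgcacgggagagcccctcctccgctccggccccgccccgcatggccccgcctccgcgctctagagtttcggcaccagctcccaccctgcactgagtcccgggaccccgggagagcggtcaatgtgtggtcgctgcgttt
TEK: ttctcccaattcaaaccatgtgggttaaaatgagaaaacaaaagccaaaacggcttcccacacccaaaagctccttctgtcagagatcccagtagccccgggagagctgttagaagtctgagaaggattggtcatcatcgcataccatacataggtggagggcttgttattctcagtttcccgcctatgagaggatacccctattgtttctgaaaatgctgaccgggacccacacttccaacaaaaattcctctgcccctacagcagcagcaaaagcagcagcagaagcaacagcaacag
TAL1: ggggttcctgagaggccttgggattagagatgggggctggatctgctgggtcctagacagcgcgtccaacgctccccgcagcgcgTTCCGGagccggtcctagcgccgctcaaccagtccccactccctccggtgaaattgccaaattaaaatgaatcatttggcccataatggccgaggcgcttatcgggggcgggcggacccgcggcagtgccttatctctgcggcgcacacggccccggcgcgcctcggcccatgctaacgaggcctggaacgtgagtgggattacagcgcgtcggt

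The capitals in ERG are 1 TEAD core, read on the reverse strand at -132 from the start, and those in TAL1 are 1 ETS core, read on the reverse strand at -165. KDR and TEK had neither in this window. Of the promoters not shown, the second of ERG held a TEAD core on the forward strand at -169, and the other 2 of ERG and the second of TEK and of TAL1 held neither core. Of 35116 promoters of this length, 17.2% held the ETS core and 14% the TEAD core, so that a match is no rare event. In the lists, a peak lay within 1 kb of the 5′ end of the gene body in 0 lists for ERG, 0 for TAL1, 1 for KDR, 2 for FLI1, 4 for TEK and 5 for CDH5. These distances are from the outer end of the gene body. RefSeq lists 4 ERG promoters in GRCh38, of which the other 3 lie 75.7, 162 and 162 kb inside the one shown, and none was lined up with the peaks.

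FLI1 (chr11:128556430-128683162, plus strand, 126733 bp) held the best ranked peak of the 6 genes in 13 of 14 lists, the exception being TAZ-CAMTA1 replicate 1, where CDH5 did. Its 211 peaks were densest in the part nearest the start of the gene. At least 12 lists shared stretches of 3737 bp, 5.72 to 9.46 kb from the start, and of 11333 bp, 20.9 to 32.2 kb from the start. Peaks of all 14 lists shared 3360 bp, in 5 segments between chr11:128562738-128563553 and chr11:128587280-128587486. Bases under a peak in at least 3 lists, joined across gaps of up to 4 kb, made 1 group from 3.5 to 47.8 kb here, in which the fusion-labelled lists had 15243 to 30951 bp under peaks and the others 3874 to 41684 bp. There were 4 further groups. That at 69.6 to 75.5 kb was present in all 4 fusion-labelled lists, with up to 5017 bp, and in 6 of the other 10, with up to 5413 bp (median 295 bp). That at 52.1 to 61.0 kb was present in 1 of the 4 and 7 of the 10, that at 102.4 to 109.4 kb in 3 and 7, and a short one at 88.1 to 88.2 kb in 0 and 3. The groups of lists overlapped in bp at each, and single groups of peaks were not tested.

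The strongest FLI1 peak ranked 105 in the list labelled TAZ4SA replicate 2 and 195 in TAZ4SA replicate 1, which was the top 0.106% and 0.191% of these lists. It ranked 576 and 209 in the lists labelled TAZ-CAMTA1 (top 2.65% and 0.432%), and 449 and 1238 in those labelled YAP-TFE3 (top 0.781% and 3.12%). In the lists labelled EV it ranked 470 and 628, and in those labelled CAMTA1 872 and 1263. In the lists labelled YAP5SA it ranked 655 and 531, and in those labelled TFE3 801 and 1266. The lists named EV by their peaks thus held the best ranks of FLI1. The shortest list was the one in which FLI1 fell outside the top 10%, at 14%. Fold enrichment at the summit of the best peak ran from 6.46 to 45.3, with a median of 17.3.

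Because the lists differ so much in length, the percent of a locus under peaks was divided by the percent of chromosomes 1 to 22 and X under peaks of the same list. A relative coverage of 1 means that the locus is covered like the genome. Peaks covered 2.64% to 63.6% of FLI1 (median 17.8%), and its relative coverage was 8.52 to 21.8 (median 9.88). That placed FLI1 between the 98.3 and the 99.6 percentile of genome stretches of its width in every list. Both lists labelled TAZ4SA, at 63.6% and 49.8%, were far above the others in the percent covered, but at 11 and 10.6 they lay among the others once divided. In these lists alone, peaks also lay in the 10 kb before the gene.

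CDH5 (chr16:66400525-66438689, plus strand, 38165 bp) was next. Its 89 peaks included a group 9.7 to 19.7 kb inside the gene in 14 of 14 lists, grouped in the same way, and the strongest summit of every list lay there, 16.1 to 17.1 kb from the start. A stretch of 406 bp, chr16:66416514-66416919, was under a peak in all 14 lists. It was the only CDH5 peak of the shortest list. Another group, 40.0 to 43.9 kb from the start and so past the 3′ end, was present in 13 lists. A group from -7.6 to 2.1 kb around the start was present in 11 lists, of which 2 were labelled with a fusion, and in 2 lists a peak covered the start itself.

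The best CDH5 peak ranked 328 and 1301 in the lists labelled TAZ-CAMTA1 (top 1.51% and 2.69%) and 560 and 1359 in those labelled YAP-TFE3 (top 0.974% and 3.43%). It ranked 2999 and 1995 in the lists labelled EV, and 5418 and 5471 in those labelled TAZ4SA. The ranks under CAMTA1 were 1664 and 2690, under YAP5SA 1015 and 2454, and under TFE3 1050 and 1671. As a share of the list, the rank in the other 10 lists ran from the top 3.27% to 18.4%, so the fusion-labelled lists lay partly inside that range. Peaks covered 0.698% to 69.6% of the locus (median 15.6%), and relative coverage was 5.77 to 12.7 (median 9.79). The 94.5 to 99.3 percentile of stretches of its width was reached.

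**Figure D2:**
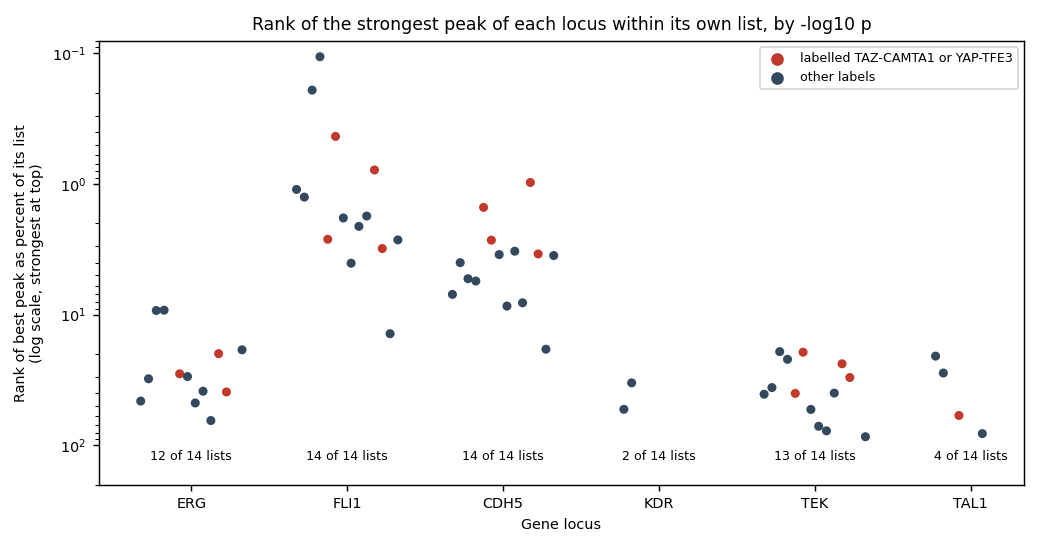
Rank of the strongest peak of each locus within its own list by −log10 p, as a percent of that list (log scale, strongest at the top), with 1 point for each list that had a peak and red for lists labelled with a fusion. FLI1 and CDH5 lie within the top 10% in 13 of 14 lists each, and ERG in 2, both labelled TAZ4SA. The share of genome stretches that do so was not computed.

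ERG (chr21:39751950-40033704, minus strand, 281755 bp) carried 106 peaks, and the one nearest to the outer 5′ end of the gene body began 156.0 kb from it. Peaks gathered 156.9 to 164.3 kb, 200.1 to 202.0 kb and 219.7 to 226.7 kb from that end, in 11, 9 and 12 lists. The most shared stretch, chr21:39812403-39812672, was under a peak in 11 lists. Lists labelled TAZ-CAMTA1 replicate 1 and TFE3 replicate 1, the ones with the fewest peaks in all, had none at ERG. In the list labelled TAZ-CAMTA1 replicate 2 the best peak ranked 13748 (top 28.4%), and in those labelled YAP-TFE3 11438 and 15509 (19.9% and 39.1%). Both lists labelled TAZ4SA, named EV in their peaks, had ERG at 9488 and 9152 (top 9.3% and 9.25%), with 24 and 25 peaks. As a share of the list these were the best ranks of ERG, while the list labelled TFE3 replicate 2, named YAP-TFE3 in its peaks, had the best rank by number, 8795 (top 18.6%). Relative coverage of ERG was 2.75 and 2.43 in those lists and 0 to 1.63 in the other 12, with a median over the 14 of 0.738. ERG was thus covered at or below the genome mean in 10 lists and above it in 4. Among genome stretches of its width it lay between the 0 and the 87.7 percentile, with a median of 65.3. A value below the genome mean could therefore still lie above most stretches.

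TAL1 (chr1:47681962-47698007, minus strand, 16046 bp) had no peak in the gene body in any list. Its 9 peaks lay in the flanks, and 4 lists shared chr1:47677864-47678158, about 20 kb from the start and past the 3′ end. Those lists were labelled TAZ4SA replicates 1 and 2, TAZ-CAMTA1 replicate 2 and YAP5SA replicate 1. Their best peaks ranked 21235, 27751, 28613 and 25339, which was the top 20.8%, 28.0%, 59.2% and 81.5%. Relative coverage was 1.83, 1.62, 0.356 and 0.965 there and 0 in the other 10. With 1 of the 4 lists labelled with a fusion, TAL1 showed no peak that both lists of a fusion label shared.

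KDR (chr4:55944426-55991762, minus strand, 47337 bp) had peaks in both lists labelled TAZ4SA and in 0 of the 4 labelled with a fusion. There were 4 and 3 of them, and the best ranked 54183 and 32997, the top 53.1% and 33.3%. A peak covered the start in TAZ4SA replicate 1, with a fold of 3.15 at its summit. Relative coverage was 1.11 and 0.354. These are also the longest lists, and without them and the shortest list KDR had a peak in 0 of 11 lists and TAL1 in 2 of 11. In the shorter lists, a peak missed for the length of the list and an absent mark cannot be told apart.

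TEK (chr9:27109147-27230172, plus strand, 121026 bp) had 75 peaks in 13 lists and none in the shortest. The stretch chr9:27150959-27151268, about 42 kb inside the gene, was under a peak in 12 lists, and a further group lay 84.1 to 86.4 kb inside, in 8 lists. Peaks within 1 kb of the start were found in the lists labelled TAZ4SA replicate 1, CAMTA1 replicate 1, YAP5SA replicate 1 and TFE3 replicate 2, and in 0 of 4 labelled with a fusion. In TAZ4SA replicate 1 and YAP5SA replicate 1 that peak was the strongest of the locus, with a fold of 7.65 and 3.15.

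Relative coverage of TEK was 2.37 and 2.04 in the lists labelled TAZ-CAMTA1 and 2.78 and 2.79 in those labelled YAP-TFE3. In the other 10 lists it ran from 0 to 1.77, with a median of 0.765. The fusion-labelled lists thus lay above all others, at 2.5 ± 0.361 (SD, n = 4) against 0.921 ± 0.557 (SD, n = 10). The difference of 1.58 had an exact two-sided permutation p of 0.000999, the smallest that the 1001 splits allow. With the gene body widened by 50 kb it was 0.668 (exact permutation p = 0.0729). The splits take the 14 libraries as separate units, although 2 share each label. Duplicates thus count as independent, which can make this p and the adjusted one too small. The same test was run on 12644 genome stretches as wide as TEK with a peak in at least 1 list, and the Benjamini-Hochberg adjusted p of TEK over all of them, from the exact permutation test, was 0.0167. Such a call was not rare, since 1149 of these stretches (9.09%) also had an adjusted p under 0.05. At an unadjusted p under 0.05, 16.4% were higher and 6.5% lower in the fusion-labelled lists, and in 5.75% the 4 lists lay above the other 10. By the peak names the same 4 lists are TAZ4SA and YAP5SA. With the lists named for a fusion set against the rest, the difference turned to -0.779 (0.815 ± 0.74, SD, n = 4, against 1.59 ± 0.876, SD, n = 10; exact permutation p = 0.148, adjusted p = 0.526). By that naming 0 stretches (0.0%) passed after adjustment, with 698 higher and 774 lower at an unadjusted p under 0.05.

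**Figure D3:**
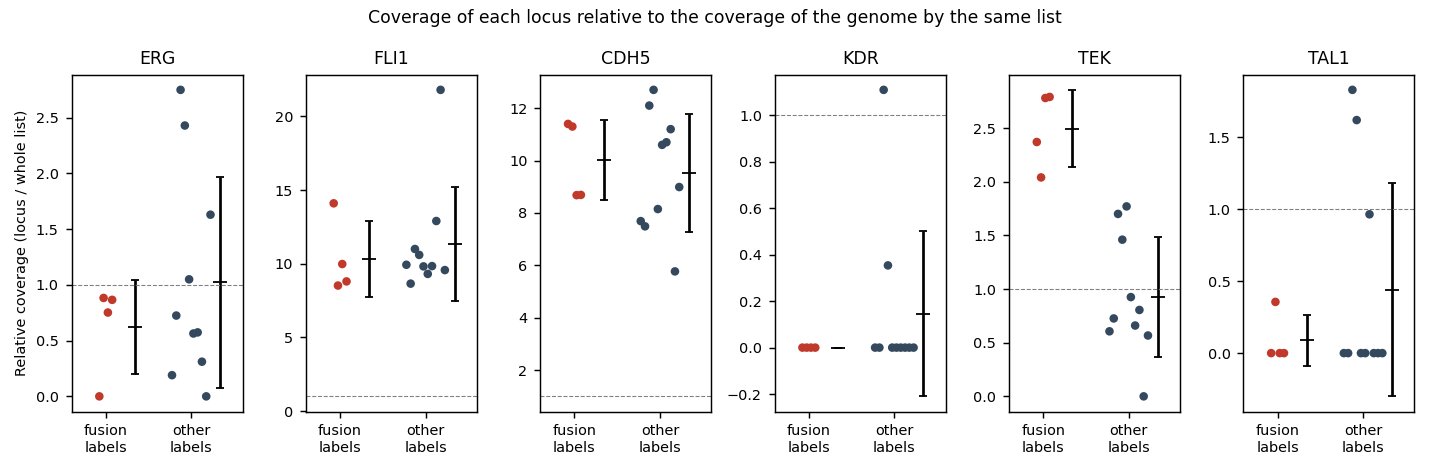
Relative coverage of each locus (percent of the locus under peaks over percent of the genome under peaks in the same list; scales differ between genes), with 1 point for each list, the 4 labelled with a fusion in red and the other 10 in blue; bars give mean ± SD and the dashed line marks 1. At TEK the red points, from 2.04 to 2.79, lie above the highest blue point at 1.77; at the other 5 genes the groups overlap.

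Within TEK, the main groups of peaks were both inside the gene. In the group at 84.1 to 86.4 kb the lists labelled TAZ-CAMTA1 had 1123 and 2099 bp under peaks, and those labelled YAP-TFE3 had 1834 and 1263 bp. Of the other 10 lists, 4 had any, with 1837 and 1662 bp in those labelled TAZ4SA, 513 bp in EV replicate 2 and 589 bp in TFE3 replicate 2. In the group at 40.8 to 48.0 kb the fusion-labelled lists had 1192 to 5295 bp and the other 10 from 0 to 5767 bp, so that the lists overlapped in bp at both places. Before division by the length of the list, the percent of TEK covered was 1.88% and 5.0% for TAZ-CAMTA1, 7.45% and 4.74% for YAP-TFE3, and 9.77% and 6.85% for TAZ4SA. On that scale the fusion-labelled lists did not stand above the rest, with a difference of 2.06 percentage points (exact permutation p = 0.273).

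The best TEK peak ranked 8730 and 9385 for TAZ-CAMTA1 (top 40.1% and 19.4%) and 13675 and 12023 for YAP-TFE3 (top 23.8% and 30.3%). Its share in the other lists with a peak ran from the top 19.2% to 86.1%. Folds of the best peak were 2.86 to 8.2. Since none was among the 5721 strongest of its list, the difference could not be looked for in the reduced lists.

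**Figure D4:**
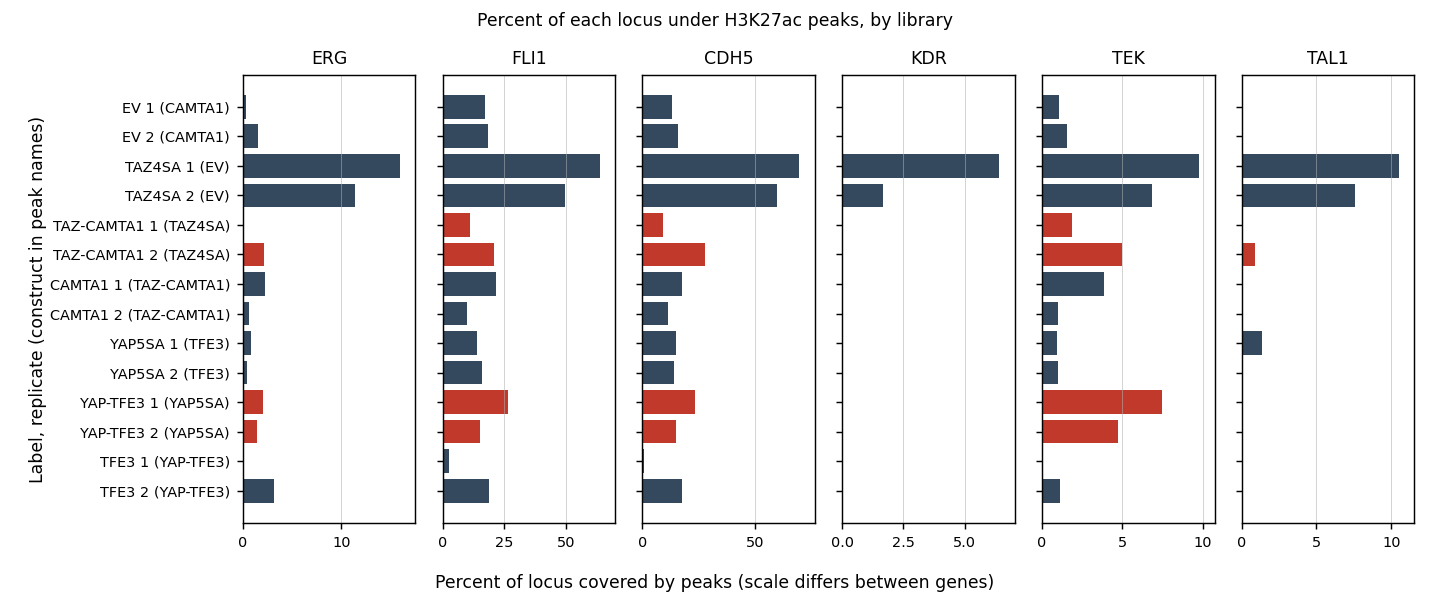
Percent of each locus under H3K27ac peaks in each of the 14 lists (bars from 0; scales differ between genes), named by label, replicate and, in brackets, the construct in the peak names, with fusion-labelled lists in red. The list labelled TAZ4SA replicate 1 had the highest percent at all 6 genes and replicate 2 the next highest at all but TEK; these lists also held the most peaks.

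At the other 5 genes the fusion-labelled lists overlapped the rest, and no exact two-sided permutation test of relative coverage passed 0.05. The transcription factor FLI1 was at 10.3 ± 2.56 (SD, n = 4) against 11.3 ± 3.85 (SD, n = 10; exact p = 0.703). CDH5 was at 10 ± 1.53 (SD, n = 4) against 9.53 ± 2.25 (SD, n = 10; exact p = 0.7). ERG was at 0.625 ± 0.421 (SD, n = 4) against 1.02 ± 0.948 (SD, n = 10; exact p = 0.467), and TAL1 at 0.089 ± 0.178 (SD, n = 4) against 0.441 ± 0.741 (SD, n = 10; exact p = 0.505). KDR was at 0 in the 4 lists against 0.147 ± 0.357 (SD, n = 10; exact p = 0.78). With 4 lists against 10, and with most lists at 0 for TAL1 and KDR, a p of this size does not show that the groups were alike. With flanks of 50 kb the KDR difference turned from -0.147 to 1.02 (exact permutation p = 0.003), with limits described below. By the peak names, with 10 kb flanks, the difference turned from -1.0 to 2.2 for FLI1 (exact permutation p = 0.322) and from 0.489 to -1.81 for CDH5 (exact permutation p = 0.133). It kept its sign for ERG (-0.137), TAL1 (-0.477) and KDR (-0.147), with an exact permutation p of 0.816, 0.341 and 0.78. A single label against EV, 2 lists against 2, cannot reach an exact p below 0.333 and was not tested.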

How the data were processed

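H3K27ac ChIP-seq peaks of 14 libraries of SW872 cells were analysed. Per the study's methods, the authors aligned reads to GRCh37/hg19 with BWA and called peaks with MACS2. For every peak the deposited lists give its position and summit, the fold enrichment there (a ratio to background), and p-value and q-value as −log10, written by the authors' peak caller. Ranks were taken within a list, and folds of different lists, which need not be comparable, are given as description only. The methods name 0.1 as the q-value cutoff and describe pooled libraries, whereas the deposited lists are 1 per library and reach down to a −log10 q of 1.3 (q = 0.05).

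The 6 genes, their coordinates and the tests were chosen with earlier results of these data known, and all 6 are named. Groups came from the labels, whose conflict with the peak names is described above. The percent of a locus under merged peaks was divided by that of chromosomes 1 to 22 and X, whose length was taken to the furthest peak end (3033 Mb in all). Lists labelled TAZ-CAMTA1 or YAP-TFE3 were set against the other 10 in 6 exact permutation tests, two-sided, with all 1001 splits. Single libraries were split, not whole labels, so the 2 duplicates of a label counted as separate units. The same test was run on non-overlapping genome stretches as wide as each locus that had a peak in at least 1 list, with Benjamini-Hochberg adjustment over them. Shares of stretches are of all stretches, gaps in the assembly included. Strands came from an annotation of GRCh38, in which gene bodies were within 4.34% of the lengths used here. No coordinate was converted between builds, and other endothelial genes planned for an annotation of GRCh37 were not analysed here. The groups of peaks within a locus (at least 3 lists, gaps of up to 4 kb) were defined after the peaks had been seen.

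The tests were repeated with stricter peaks (−log10 q from 5 up, or q up to 0.01), with the 5721 strongest peaks of each list, with gene bodies without flanks or widened by 50 kb, with coverage not divided by the list, without each library, within replicate numbers (a block), by the construct in the peak names and, chosen after seeing the data, 11 lists without the shortest and both longest, and for KDR with 50 kb flanks the peak names and 1 library left out. The counts of lists with a peak were repeated with the peak settings and flanks, and with summits inside the locus. The code ran in Python 3.11.15 with pandas 2.3.3, numpy 2.4.6, matplotlib 3.10.9 and scipy 1.17.1, and was tested on simulated data.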

Additional observations from a re-analysis of the deposited data

Results flagged for a closer look

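Chance flags about 1 in 20 groups of libraries as having a value far from the others, provided the values are continuous and normally distributed. That rate does not hold where most lists are tied at 0, as at KDR and TAL1. At ERG, the list labelled TAZ-CAMTA1 replicate 1 had a relative coverage of 0.0, while the other 3 lists labelled with a fusion were at 0.752 or above. The gap was 0.851 of the range of the 4 lists. This list is the second shortest of the 14, with 21748 peaks. At FLI1, the shortest list, labelled TFE3 replicate 1, was at 21.8 and the next of the 10 lists without a fusion label at 12.9, a gap of 0.679 of the range. At KDR, the list labelled TAZ4SA replicate 1 was at 1.11 and the next at 0.354, a gap of 0.682 of the range, in a group where 8 lists were at 0. At TAL1, the list labelled TAZ-CAMTA1 replicate 2 was at 0.356 and the other 3 lists labelled with a fusion were at 0, so that any single value above 0 would have been flagged.

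ERG differed between the arms of the study. Relative coverage in the lists labelled TAZ-CAMTA1 was below that of both lists labelled TAZ4SA, by -2.15 on average, whereas both lists labelled YAP-TFE3 lay above both labelled YAP5SA, by 0.366. The arms differed by -2.52, and this difference was not tested. By the peak names the TAZ arm turned to 0.366, the YAP arm was at 0.00679, and the arms differed by 0.359. Both lists labelled TAZ4SA are the longest of the 14, and by the peak names they are EV. Their part in the difference was not tested.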

How the results depend on the processing

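Of the differences in relative coverage between lists labelled with a fusion and the other lists, that of TEK alone passed its test. It stayed past 0.05 with stricter peaks (q up to 0.01, or −log10 q from 5 up), no flanks, the replicate block, each library left out (1.47 to 1.73) and the 11 lists without the shortest and both longest. It did not pass at 50 kb flanks (0.668, exact permutation p = 0.0729), undivided (2.06) or with 5721 peaks a list, where it was 0.0 because no list had a peak, and it turned to -0.779 by the peak names.

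The other genes missed the threshold throughout, apart from KDR at 50 kb flanks, where its direction also turned, from -0.147 to 1.02 (exact permutation p = 0.003). That call rested on TAZ-CAMTA1 replicate 1, without which it was 0.512 (exact permutation p = 0.0629), and by the peak names it was -0.675 (exact permutation p = 0.157), both chosen after seeing the data. The 50 kb window also ended inside a group of peaks, which counted only up to its edge, and a window holding them whole was not tested. Other directions turned as follows. FLI1 was at 2.2 by the peak names, 0.0194 with 5721 peaks a list, 0.000511 at 50 kb, 0.161 without TFE3 replicate 1 and 0.342 in the 11 lists. CDH5 was at -1.81 by the peak names and -4.85 undivided, and kept its direction with 5721 peaks a list, at 5.41 (exact permutation p = 0.0989). With each library left out, FLI1 ran from -2.24 to 0.161, CDH5 from 0.0227 to 0.934, ERG from -0.511 to -0.189, KDR from -0.163 to -0.0393 and TAL1 from -0.441 to -0.198. The cause was not tested.

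The number of lists with a peak fell to 0 with 5721 peaks a list for ERG, KDR, TEK and TAL1. KDR had 13 lists at 50 kb flanks, 1 at a −log10 q of at least 5 and 0 of the 11. TAL1 had 2 lists at a −log10 q of at least 5, 2 of the 11 and 0 without flanks.

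Whether replicate numbers pair the libraries could not be decided, since each correlation rests on 6 genes only. Deviations of same-numbered libraries over the 6 genes had a median correlation of 0.229 over 21 pairs of labels, from -0.956 to 0.993, with 13 over 0.1. With the number as a block TEK had an exact permutation p of 0.00227 and a difference of 1.58, and the block changed no call.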

Other observations

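KDR was the gene for which the width of the window mattered most. Outside the 10 kb flank, peaks lay more than 40 kb before its start in 13 of 14 lists, the exception being the shortest. They ranged from 2 peaks of at most 375 bp in the list labelled CAMTA1 replicate 2 to 1 peak of 13189 bp. This peak, in the list labelled TAZ4SA replicate 1, was at chr4:56036095-56049283, with a fold of 18.1 at its summit, and the next widest were 9206 bp in TAZ4SA replicate 2, with a fold of 17.3, and 7412 bp in TAZ-CAMTA1 replicate 2, with a fold of 14.2. Relative coverage of KDR with flanks of 50 kb was 3.36 and 1.31 in the lists labelled TAZ-CAMTA1 and 1.13 and 1.49 in those labelled YAP-TFE3, beside 0 to 1.22 in the other 10, so that the groups overlapped. By the peak names, the lists named for a fusion were at 0.845, 0.475, 0 and 1.12. The list labelled TAZ-CAMTA1 replicate 1, at 3.36, is the second shortest. The 50 kb window ended inside this stretch of peaks, so peaks crossing its edge counted only in part. In YAP5SA replicate 1, at 0.244, a peak of 1732 bp ran from -51.647 to -49.916 kb, mostly past the edge. Which gene the peaks more than 40 kb before the start of KDR belong to was not tested.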
